A study of Mus musculus with 18 samples.

Results

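The genes described here copy DNA and pack the copy in S phase: 30 genes chosen by name, from origin licensing to nucleotide supply and chromatin assembly. The rule names the genes and uses no measured value to pick them, but the set was chosen with earlier results of these data known. Of the 30 genes, 27 were measured, among 12393 genes in all. No probe set carried Gins2, Dscc1 or Chaf1a as its single gene symbol, so these 3 have no value. No filter on low signal was applied, and every one of the 27 measured genes was tested.

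RNA of 18 microdissected lung tumours, from C57/B6-129SvJae mice aged 10 weeks, was profiled on single-colour arrays. Treated mice received tamoxifen by intraperitoneal injection, given in 2 doses, and their tumours, labelled as having p53 restored, were taken on day 7 counted from the initial dose. No treatment is recorded for the untreated tumours, the alleles that make p53 restorable are not stated in the labels, and no wild-type or vehicle group was used here. The deposited values are log2 signals, so a difference of 1 is a doubling of signal, and signals were compared between tumours and not between probe sets of different genes.

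The treated grade 3 group holds 6 adenocarcinomas, all from female mouse 8688. The treated grade 2 group holds 4 adenomas, of which 3 came from mouse 8688 and 1, 8639T4, from a male mouse. The untreated grade 3 group holds 4 adenocarcinomas from 3 male mice (8584T3, 8565T1, 8629T10 and 8629T12). The untreated grade 2 group holds 4 adenomas from 2 male mice (8700T1, 8700T3, 8565T3 and 8565T4). The number that opens a tumour's name was taken as its mouse, which the labels do not state outright. Where 6 values are given for treated adenocarcinomas, they stand in the order 8688T1, 8688T2, 8688T3, 8688T5, 8688T6 and 8688T11. Treated adenomas stand in the order 8688T8, 8688T9, 8688T10 and 8639T4, and untreated tumours in the order just named. In grade 3, treatment cannot be told apart from animal or sex, and in grade 2 only 1 treated tumour came from a male. Tumours of 1 mouse are not independent, so p-values over tumours are too small even with the mouse as a random block in the fit.

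Replication begins with licensing. The origin recognition complex, Cdc6 and Cdt1 load the Mcm2 to Mcm7 helicase onto DNA in G1, and Cdc45, the GINS complex and Mcm10 turn it into a moving fork. Primase and polymerase alpha lay down primers, Pcna is the sliding clamp that replication factor C loads, and Fen1 and Lig1 join the lagging strand. Many of these genes are transcribed by E2F factors as cells enter S phase. p53 induces Cdkn1a, an inhibitor of cyclin-dependent kinases, and low kinase activity keeps E2F factors bound by the retinoblastoma family. In bulk tumours, fewer cells in S phase and less RNA per cell cannot be told apart.

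Promoter windows are shown for 4 of these genes. Tk1 was the only gene called for treatment, and Mcm6 held the most matches to the E2F motif. Mcm5 and Mcm10 were not called in the main fit, but their treated and untreated adenomas did not overlap. Other genes with treatment differences of similar size, such as Uhrf1 and Rrm2, are not shown. The windows are the 250 bases before an annotated transcript start in RefSeq, build GRCm38.p6, printed 5′ to 3′ on the gene's strand. For Tk1 and Mcm5 that start lies inside the annotated gene, so part of each of these windows overlaps the gene. RefSeq windows were at hand for 26 of the 30 genes, 31 windows in all. Capitals mark matches, on either strand, to TTTNNCGC (the E2F motif searched), CCAAT (the NF-Y motif) or GGGCGG (the GC box), and overlapping matches run together.
Tk1 (chr11:117826015-117826264, minus strand): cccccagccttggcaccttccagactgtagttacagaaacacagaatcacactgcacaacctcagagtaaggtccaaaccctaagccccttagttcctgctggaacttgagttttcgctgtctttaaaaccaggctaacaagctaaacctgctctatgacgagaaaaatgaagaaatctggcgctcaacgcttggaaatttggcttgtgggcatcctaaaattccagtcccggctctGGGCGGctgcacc
Mcm5 (chr8:75109259-75109508, plus strand): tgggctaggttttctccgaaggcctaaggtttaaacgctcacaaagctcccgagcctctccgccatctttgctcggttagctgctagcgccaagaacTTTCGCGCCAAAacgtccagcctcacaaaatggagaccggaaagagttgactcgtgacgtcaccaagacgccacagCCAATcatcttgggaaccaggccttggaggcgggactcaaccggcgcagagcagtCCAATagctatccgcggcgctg
Mcm10 (chr2:5012792-5013041, minus strand): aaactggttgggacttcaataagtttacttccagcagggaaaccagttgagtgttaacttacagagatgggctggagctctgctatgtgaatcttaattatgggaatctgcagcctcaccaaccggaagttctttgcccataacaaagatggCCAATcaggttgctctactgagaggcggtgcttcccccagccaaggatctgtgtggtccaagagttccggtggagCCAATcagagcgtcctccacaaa
Mcm6 (chr1:128359706-128359955, minus strand): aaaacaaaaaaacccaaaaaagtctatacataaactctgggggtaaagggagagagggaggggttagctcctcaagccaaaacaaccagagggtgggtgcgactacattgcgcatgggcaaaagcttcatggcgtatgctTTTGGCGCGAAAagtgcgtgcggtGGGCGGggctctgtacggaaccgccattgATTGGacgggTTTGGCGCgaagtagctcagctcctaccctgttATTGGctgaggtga

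The Tk1 window held no TTTNNCGC and no CCAAT match and 1 GC box. The Mcm5 window held 2 TTTNNCGC matches, which overlap each other on opposite strands, and 2 CCAAT matches. The Mcm10 window held 2 CCAAT matches and no TTTNNCGC match, and the Mcm6 window held 3 TTTNNCGC matches. TTTNNCGC was found in 9 of the 31 windows of these genes (29%), against 4.28% of 32851 windows of the same length over all genes. CCAAT was found in 61.3% of the 31 windows against 33.8% of all windows, and GGGCGG in 61.3% against 32.7%. TTTGAA, the core of the cell cycle homology region, was found in 9.68% against 16%. A match is a run of letters and not a shown binding site.

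The mean over the 18 tumours was above the array median for 18 genes and below it for 9. Signal lay above the median on every array for 15 genes. It lay below the median on every array for 7: Cdc6, Mcm5, Orc1, Cdc45, Mcm10, Tyms and Chaf1b. Tk1 lay close to the median, above it on 8 of the 18 arrays.

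Array medians ran from 6.05 to 6.18, and arrays correlated at 0.974 to 0.997 over all probe sets. Epithelial markers were high in every group: the mean over Sftpc, Sftpb, Sftpd, Nkx2-1, Epcam, Cdh1, Krt8, Krt18 and Lyz2 ran from 10.75 to 11.35, and 1 of these 9 genes, Nkx2-1, lay below the median on every array. The excess of 3′ over 5′ signal was averaged over the controls β-actin and Gapdh, whose 5′ signal lay above the median on every array. It was 2.62 in 8688T3 and 1.85 in 8639T4, against 1.05 or less elsewhere. The controls transferrin receptor, pyruvate carboxylase and 18S RNA, left out of this mean, did not set both tumours apart. They gave 2.23, 4.40 and -1.18 in 8688T3 and 3.03, 4.06 and -2.31 in 8639T4, against up to 3.12, 4.70 and -0.54 elsewhere.

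**Figure D1:**
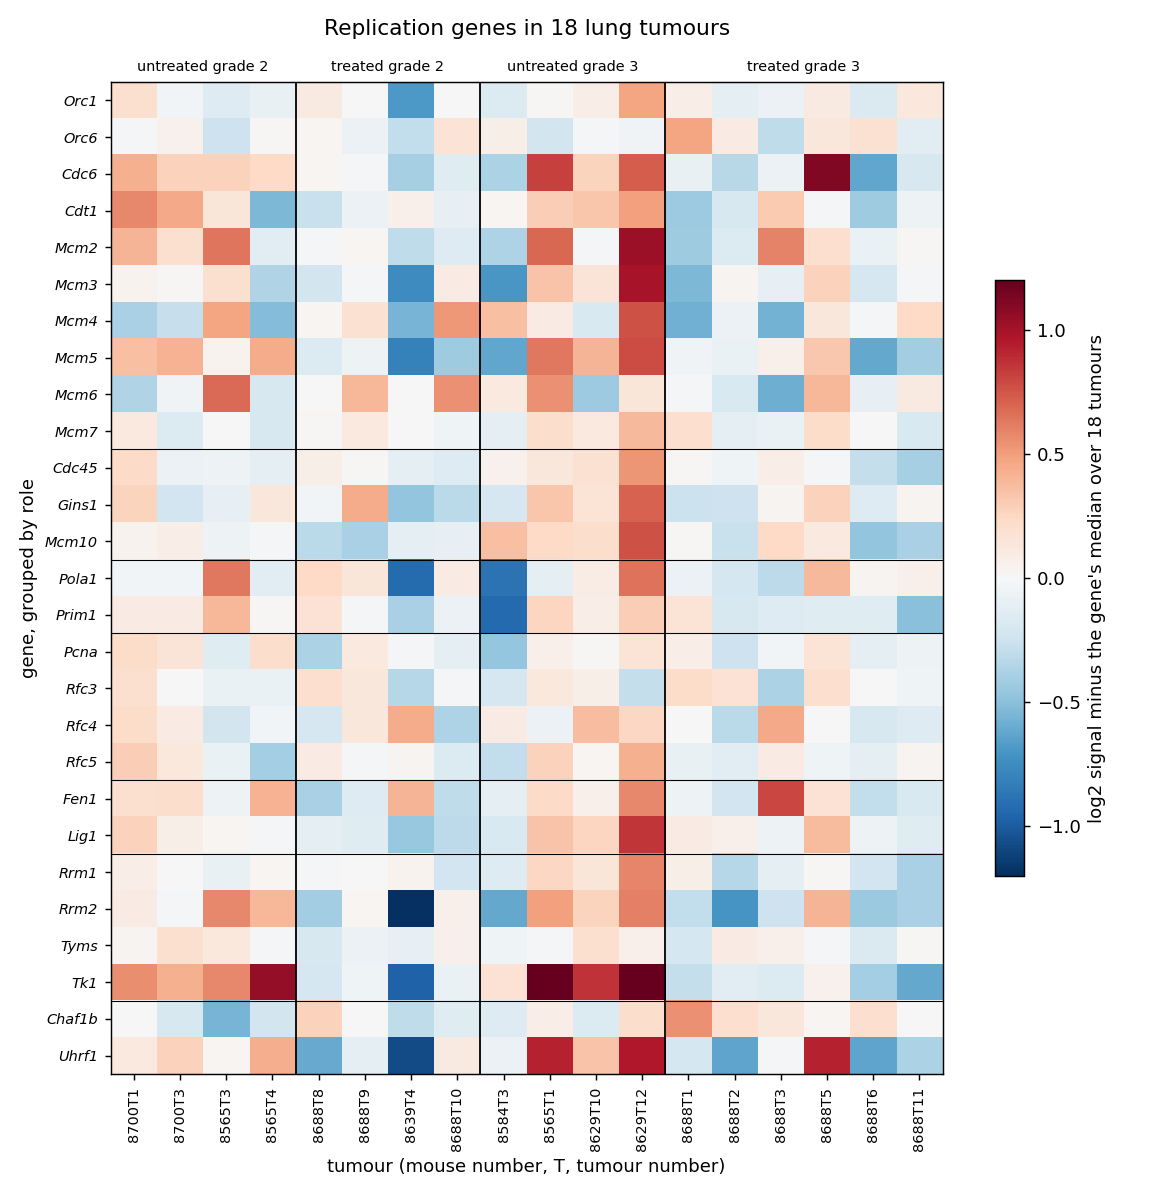
Log2 signal of each of the 27 measured replication genes (rows, grouped by role) minus that gene's median over the 18 tumours, for each tumour (columns, in 4 groups); red is above the gene's median and blue below. The column of 8629T12 is red in most rows and that of 8639T4 is blue in most rows.

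In grade 3, most replication genes had lower signal in treated than in untreated tumours, but only thymidine kinase 1 fell by the test. The fitted difference was below 0 for 23 of the 27 genes, with a median of -0.30, against a median of 0.03 and 43.8% below 0 over all 12393 genes. The median was -0.16 without 8629T12 and -0.10 without mouse 8629. Of the 27 genes, Tk1 alone passed (limma, adjusted p under 0.05), where 0.516% of all genes were called in either direction and 0.347% were called lower. Mcm10, Cdc45 and Uhrf1 reached an unadjusted p under 0.05 with Tk1, all lower in treated tumours, where 4.48% of all genes did so in that direction. Groups did not overlap for 1 of the 27 genes, Tk1, against 2.21% of all genes with treated tumours lower. Fitted differences weight tumours by the correlation of 0.235 within a mouse and so differ a little from plain differences of group means.

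In grade 2 the direction was the same for most genes and no gene of the 27 passed. The fitted difference was below 0 for 21 of 27 genes, with a median of -0.18 against 0.01 over all genes, of which 49% lay below 0. The median was -0.08 without 8639T4. No member was called lower or higher by limma, where 0.0807% of all genes were called. At an unadjusted p under 0.05, 3 genes were lower (Tk1, Mcm5 and Rrm2) and none higher, against 3.36% of all genes lower. Treated and untreated adenomas did not overlap for 5 genes, all lower in treated tumours (Tk1, Cdc6, Mcm5, Mcm10 and Lig1), against 3.97% of all genes. The grade 2 and grade 3 comparisons share no tumour, but 9 of the 10 treated tumours came from mouse 8688.

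**Figure D2:**
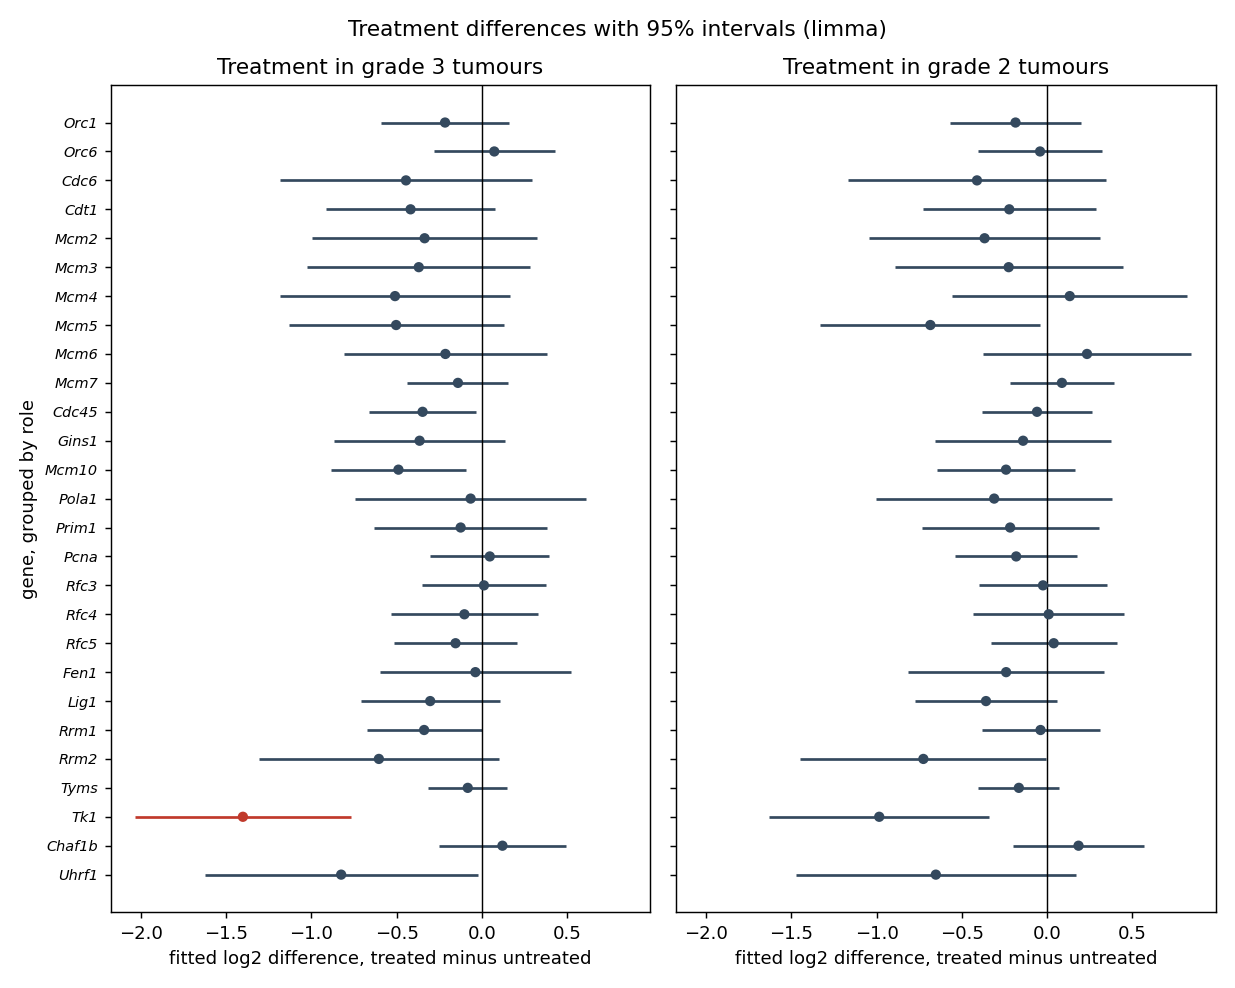
Fitted log2 difference, treated minus untreated, of each measured replication gene with its 95% interval from limma, in grade 3 (left) and grade 2 (right) tumours; red marks adjusted p under 0.05. Tk1 in grade 3 is the only red point, and most other intervals cross 0 while their points lie to its left.

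The genes that make DNA precursors held the largest treatment difference of the set. Tk1 encodes thymidine kinase, which phosphorylates thymidine and is made mainly in S phase. It lies at chr11:117815519-117826087 in GRCm38.p6 and was measured by 1 probe set, 1416258_at. In the 6 treated adenocarcinomas its log2 signal was 5.71, 5.87, 5.84, 6.05, 5.59 and 5.39. In the untreated adenocarcinomas it was 6.17 in 8584T3, 7.57 in 8565T1, 6.86 in 8629T10 and 7.55 in 8629T12. All 6 treated tumours thus lay below all 4 untreated tumours, and the gap to 8584T3 was narrow. The group means were 5.74 ± 0.23 (SD, n = 6) and 7.04 ± 0.66 (SD, n = 4). The fitted difference was -1.40 (SE 0.30, limma adjusted p = 0.0439).

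Tk1 in the treated adenomas was 5.80 in 8688T8, 5.95 in 8688T9, 5.92 in 8688T10 and 5.03 in 8639T4. In the untreated adenomas it was 6.55, 6.42, 6.58 and 7.06. The groups did not overlap here either, and the tumour of the second treated mouse was the lowest of all 18. The fitted difference was -0.98 (SE 0.31, limma adjusted p = 0.483). Over both grades, the highest of 10 treated tumours was 6.05 and the lowest of 8 untreated tumours 6.17, and among the 27 genes Tk1 alone had no overlap over all 18 tumours. Of all genes, 0.194% showed this pattern with treated tumours lower. The call in grade 3 was close to the threshold: it was lost in 15 of the 18 fits that left out a tumour, with differences from -1.66 to -1.21 and limma adjusted p up to 0.116, and was kept without 8688T5, 8639T4 or 8584T3. It was also lost with 1 mean per animal and group (-1.24, limma adjusted p = 0.9998) and without the 2 tumours with a 3′ excess (-1.28, limma adjusted p = 0.094). With sex as a covariate the adjusted p from limma was 0.118, but the difference was larger, at -2.13, and rested on 8639T4, the sole treated tumour from a male.

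Rrm2 encodes the small subunit of ribonucleotide reductase, which makes deoxyribonucleotides and is synthesised in S phase. Its signal in treated adenocarcinomas was 10.08, 9.66, 10.13, 10.78, 9.93 and 9.99. In untreated adenocarcinomas it was 9.76 in 8584T3, 10.87 in 8565T1, 10.64 in 8629T10 and 10.98 in 8629T12. Of the 6 treated tumours, 5 lay below the latter 3, and 8584T3 lay among the treated tumours. Treated minus untreated, the fit gave -0.60 (SE 0.33, limma adjusted p = 0.589). In adenomas the treated values were 9.95, 10.39, 10.43 and, in 8639T4, 9.10, and the untreated values were 10.47, 10.35, 10.95 and 10.77. These groups overlapped by a small margin, and the fitted difference was -0.73 (SE 0.34, limma adjusted p = 0.763).

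Rrm1 encodes the large subunit, which is less tied to S phase. Its signal ran from 7.66 to 8.11 in treated and from 7.89 to 8.63 in untreated adenocarcinomas, in the order 8.11, 7.71, 7.94, 8.06, 7.82 and 7.66 against 7.89, 8.29, 8.19 and 8.63. The fit gave -0.34 (SE 0.16, limma adjusted p = 0.519). In adenomas, 8.02, 8.05, 7.81 and 8.08 in treated tumours stood beside 8.12, 8.04, 7.95 and 8.07 in untreated ones, with a fitted difference of -0.04 and a 95% interval of -0.38 to 0.31. Tyms, thymidylate synthase, lay below the array median throughout. Its treated adenomas were at 3.56, 3.68, 3.82 and 3.65 and its untreated adenomas at 3.79, 3.94, 3.88 and 3.73. For Tyms the fit gave -0.17 (SE 0.11) in grade 2 and -0.08 in grade 3. In grade 3, Tyms was at 3.55, 3.85, 3.82, 3.74, 3.58 and 3.77 in treated and at 3.70, 3.73, 3.95 and 3.81 in untreated tumours, and the groups overlapped.

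**Figure D3:**
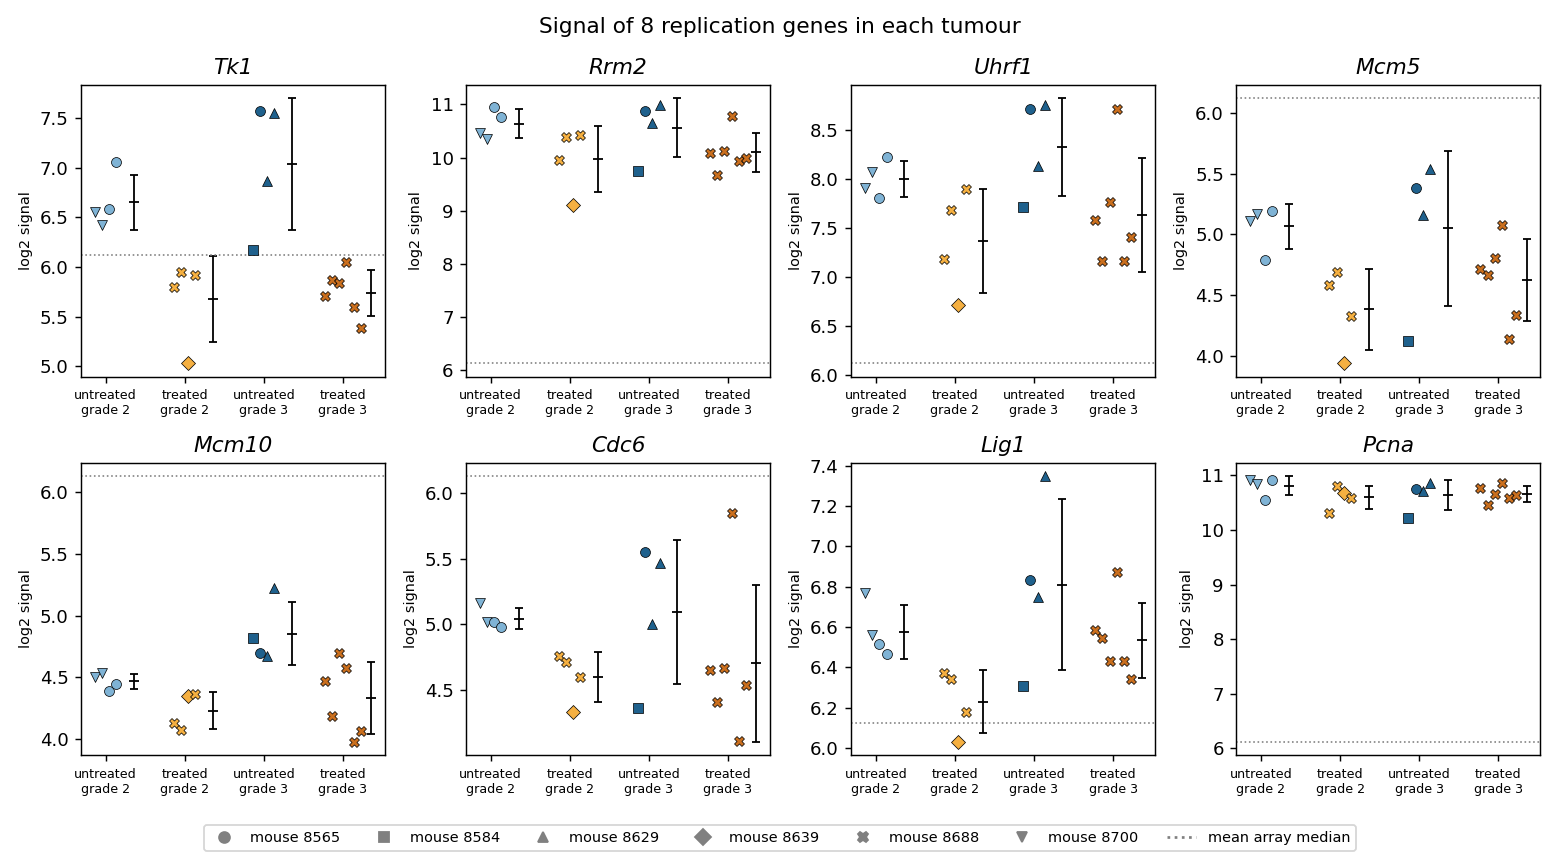
Log2 signal of 8 replication genes in each tumour, by group, with a marker shape per mouse, the group mean and SD as a bar beside the points, and the mean array median as a dotted line. Tk1 separates treated from untreated tumours in both grades, while the group means of Pcna run from 10.60 to 10.81.

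Among the genes that load and form the helicase, 9 of 10 lay below 0 in grade 3 and 7 of 10 in grade 2, and none passed the test. The median fitted difference of these 10 licensing genes was -0.35 in grade 3 and -0.20 in grade 2. Mcm5, a subunit of the Mcm2 to Mcm7 ring, had the largest difference of the 10 in adenomas. Its signal was 4.58, 4.69, 4.32 and, in 8639T4, 3.94 in treated adenomas and 5.11, 5.17, 4.79 and 5.19 in untreated adenomas. The groups did not overlap, all values lay below the array median, and the fitted difference was -0.68 (SE 0.31, limma adjusted p = 0.722).

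In adenocarcinomas, Mcm5 was at 4.71, 4.67, 4.81, 5.08, 4.14 and 4.34 in treated tumours and at 4.12, 5.38, 5.16 and 5.54 in untreated ones. The untreated tumour at 4.12 was 8584T3, below all 6 treated tumours, and the other 3 were above them. For Mcm5 in grade 3 the fit gave -0.50 (SE 0.30, limma adjusted p = 0.612). Cdc6, the ATPase that helps load the ring, also did not overlap in adenomas. Its treated adenomas (4.76, 4.71, 4.60 and 4.34) lay below its untreated adenomas (5.16, 5.02, 5.01 and 4.98), with a fitted difference of -0.41 (SE 0.36). In adenocarcinomas, 8688T5 at 5.85 was above every untreated tumour, 8584T3 at 4.36 was the lowest untreated tumour, and the fitted difference was -0.44 (SE 0.35).

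The other subunits of the ring lay below 0 in grade 3 and on both sides of 0 in grade 2. In grade 3 the fitted difference was -0.34 for Mcm2, -0.37 for Mcm3, -0.51 for Mcm4, -0.21 for Mcm6 and -0.14 for Mcm7. In grade 2 it was -0.37 for Mcm2 and -0.23 for Mcm3, but 0.13 for Mcm4, 0.23 for Mcm6 and 0.09 for Mcm7. None of these passed, with adjusted p from limma at 0.633 or above for Mcm4, Mcm6 and Mcm7. In grade 2 all other probe sets of Mcm4, Mcm6 and Mcm7 lay below 0, unlike the brightest ones used here. Mcm2 signal ran from 7.44 to 8.46 in treated and from 7.49 to 8.90 in untreated adenocarcinomas, and Mcm3 signal from 7.69 to 8.51 and from 7.53 to 9.22. In both genes 8584T3 was the lowest and 8629T12 the highest untreated tumour. Cdt1, the loading factor that geminin inhibits, ran from 7.6 to 8.35 in treated and from 8.06 to 8.53 in untreated adenocarcinomas and differed by -0.42 in grade 3 and -0.22 in grade 2. Orc1 differed by -0.22 and -0.18, at a signal below the median in every tumour. Orc6 differed by 0.07 in grade 3, with a 95% interval of -0.28 to 0.43, and by -0.04 in grade 2.

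The signals of Mcm4, Mcm6 and Mcm7 overlapped between all groups. Mcm4 was at 10.09, 10.60, 10.10, 10.81, 10.64 and 10.91 in treated adenocarcinomas and at 11.03, 10.77, 10.48 and 11.43 in untreated ones. In adenomas it was 10.69, 10.85, 11.19 and 10.11 with treatment and 10.28, 10.39, 11.14 and 10.15 without. Untreated adenocarcinomas had the highest group mean, 10.93 ± 0.40 (SD, n = 4), but the adenomas 8565T3 and 8688T10 lay above 3 of the 4. Mcm6 was at 9.23, 9.07, 8.66, 9.64, 9.15 and 9.36 in treated and 9.36, 9.80, 8.82 and 9.39 in untreated adenocarcinomas. It was at 9.25, 9.65, 9.79 and 9.25 in treated and 8.89, 9.21, 9.93 and 9.05 in untreated adenomas. The treated adenomas held the highest group mean of Mcm6, 9.48 ± 0.28 (SD, n = 4), and all groups overlapped. Mcm7 was at 9.43, 9.12, 9.14, 9.45, 9.22 and 9.04 in treated and at 9.10, 9.43, 9.34 and 9.61 in untreated adenocarcinomas. Its adenomas were at 9.23, 9.34, 9.17 and 9.22 with treatment and 9.34, 9.06, 9.22 and 9.03 without, so that 8629T12 was the only tumour above 9.45.

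All 3 measured genes of helicase activation lay below 0 in both treatment comparisons. Mcm10 helps start unwinding and stabilises the fork. Its signal was 4.47, 4.19, 4.70, 4.58, 3.98 and 4.07 in treated adenocarcinomas and 4.82, 4.70, 4.67 and 5.22 in untreated ones. The treated tumour 8688T3 reached the untreated range, and the other 5 treated tumours lay below all 4 untreated tumours. Treatment differed by -0.49 in the fit (SE 0.19, limma adjusted p = 0.353). The treated adenomas (4.13, 4.07, 4.36 and 4.35) lay below the untreated adenomas (4.50, 4.53, 4.39 and 4.44), with a fitted difference of -0.24.

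Cdc45, a subunit of the active helicase, was at 4.73, 4.68, 4.80, 4.71, 4.44 and 4.32 in treated and at 4.78, 4.86, 4.91 and 5.26 in untreated adenocarcinomas. A single treated tumour, 8688T3, reached into the untreated range. For Cdc45 the fit gave -0.35 (SE 0.15, limma adjusted p = 0.442). In adenomas, Cdc45 was at 4.79, 4.74, 4.57 and 4.60 with treatment and at 4.96, 4.66, 4.67 and 4.61 without, a fitted difference of -0.06. Gins1, a subunit of the GINS complex, differed by -0.36 in grade 3 and -0.14 in grade 2, and both 95% intervals crossed 0 (-0.87 to 0.14 and -0.65 to 0.37).

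Genes of priming and of the clamp had fitted differences from -0.31 to 0.05. Pola1, the catalytic subunit of polymerase alpha, differed by -0.07 in grade 3 and -0.31 in grade 2, and Prim1, the catalytic subunit of primase, by -0.12 and -0.22. For Pola1, Prim1 and Pcna, 8584T3 was the lowest untreated tumour, at 4.94, 6.92 and 10.23. The other untreated adenocarcinomas were at 5.71 to 6.47, 7.94 to 8.15 and 10.71 to 10.86. Pola1 in treated adenomas was at 4.90 in 8639T4 and at 5.92 to 6.06 in mouse 8688, beside 5.70 to 6.45 in untreated adenomas. Pcna averaged 10.66 ± 0.14 (SD, n = 6) in adenocarcinomas of treated mice and 10.64 ± 0.28 (SD, n = 4) in those of untreated mice. Its fitted difference was 0.05 in grade 3 (95% interval -0.30 to 0.40) and -0.18 in grade 2 (-0.54 to 0.18). Rfc3 differed by 0.01 (-0.35 to 0.38) and -0.02 (-0.40 to 0.35), and Rfc4 by -0.10 and 0.01. Rfc5 differed by -0.15 and 0.04, with signal below the median in most tumours. These intervals do not show that the clamp genes were equal between groups.

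The lagging strand genes lay below 0 in both grades. Lig1, the ligase that seals Okazaki fragments, was at 6.37, 6.34, 6.18 and, in 8639T4, 6.03 in treated adenomas and at 6.77, 6.56, 6.51 and 6.46 in untreated adenomas. The groups did not overlap, and the fitted difference was -0.36 (SE 0.20, limma adjusted p = 0.817). In adenocarcinomas, Lig1 was at 6.59, 6.55, 6.43, 6.87, 6.43 and 6.34 with treatment and at 6.31, 6.83, 6.75 and 7.35 without, a fitted difference of -0.30 with 8584T3 again the lowest untreated tumour. Fen1, the flap endonuclease, differed by -0.04 in grade 3 and -0.24 in grade 2. Its values were 9.46, 9.29, 10.33, 9.69, 9.22 and 9.34 in treated and 9.42, 9.75, 9.58 and 10.09 in untreated adenocarcinomas. They were 9.13, 9.37, 9.22 and 9.92 in treated and 9.71, 9.73, 9.46 and 9.94 in untreated adenomas. In both treated groups the highest Fen1 value was that of the tumour with a 3′ excess, 8688T3 and 8639T4, and the part of RNA quality in this was not tested.

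Uhrf1, which reads hemimethylated DNA behind the fork and recruits Dnmt1, had the largest difference after Tk1 in grade 3. It was at 7.58, 7.16, 7.77, 8.71, 7.16 and 7.41 in treated and at 7.72, 8.71, 8.13 and 8.76 in untreated adenocarcinomas. Among treated tumours only 8688T5 stood as high as the upper untreated tumours. Uhrf1 thus differed by -0.82 in the fit (SE 0.38, limma adjusted p = 0.497). In adenomas it was at 7.18, 7.69, 7.90 and, in 8639T4, 6.72 with treatment and at 7.91, 8.07, 7.81 and 8.23 without, a fitted difference of -0.65 (SE 0.39, limma adjusted p = 0.841). Chaf1b, a subunit of chromatin assembly factor 1, lay on the other side of 0. It was at 5.55, 5.20, 5.14, 5.03, 5.20 and 5.0 in treated and at 4.85, 5.08, 4.83 and 5.21 in untreated adenocarcinomas, and at 5.28, 5.0, 4.86 and 4.70 in treated and 5.0, 4.81, 4.44 and 4.79 in untreated adenomas. The fitted differences were 0.12 and 0.18, all values lay below the array median, and neither comparison passed.

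Tumours of the same group differed widely in these genes. The untreated adenocarcinoma 8629T12 was the highest of all 18 tumours for 15 of the 27 genes. Its mean deviation from the genes' own medians was 0.54, and 25 genes lay above their median there. The treated adenoma 8639T4 was the lowest tumour for 9 genes, with a mean deviation of -0.35. The untreated adenocarcinoma 8584T3 lay with the treated tumours, with a mean deviation of -0.20 against 0.32 in 8565T1, 0.14 in 8629T10 and 0.54 in 8629T12. It was below the mean of these 3 for 24 of 27 genes, with a median of -0.48. The treated adenocarcinoma 8688T5 was the highest treated tumour at 0.21, with 22 genes above their median.

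By group, the mean deviation over the 27 genes was -0.06 ± 0.15 (SD, n = 6) for treated adenocarcinomas and 0.20 ± 0.31 (SD, n = 4) for untreated ones. For adenomas it was -0.12 ± 0.16 (SD, n = 4) with treatment and 0.09 ± 0.06 (SD, n = 4) without. Untreated adenocarcinomas thus spread most and untreated adenomas least. Without 8584T3, treated adenocarcinomas lay below untreated ones for 24 of 27 genes, with a median difference of group means of -0.37. There, 4 genes did not overlap, against 4.63% of all genes. 8584T3 was picked out as low in these same genes, so a wider gap without it is built in, and no conclusion is drawn. In the fit, the median difference in grade 3 was -0.41 without 8584T3. It was -0.16 without the highest untreated adenocarcinoma, against -0.30 with all tumours. In grade 2, the 3 treated tumours of mouse 8688 alone lay below the untreated adenomas for 18 of 27 genes with a median of -0.12, and 6 genes did not overlap, against 7.17% of all genes. The tumour 8639T4 alone lay below the mean of the untreated adenomas for 22 of 27 genes with a median of -0.36, and below all 4 of them for 18 genes, against 19.9% of all genes.

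**Figure D4:**
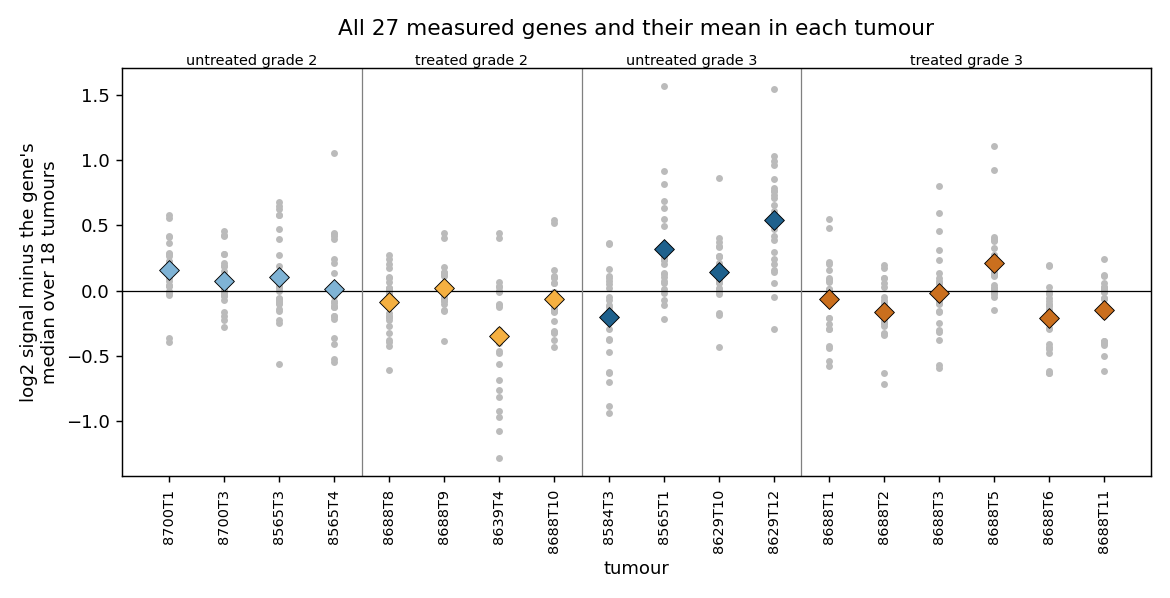
Log2 signal minus the gene's median over 18 tumours, for all 27 measured genes (grey points) and their mean (diamond) in each tumour, by group. The means run from -0.35 in 8639T4 to 0.54 in 8629T12, and 8584T3 at -0.20 is the only untreated tumour whose mean lies below 0.

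Other signals differed between these tumours too. Cdkn1a, the p53 target that encodes a kinase inhibitor, was at 10.52 to 11.87 in the treated adenocarcinomas and at 9.0, 9.34 and 9.19 in 8565T1, 8629T10 and 8629T12, but at 10.40 in 8584T3. In adenomas it was at 11.27 or less, and above every untreated adenoma, with treatment, and at 10.80 and 10.63 in mouse 8700 and 9.02 and 8.88 in mouse 8565 without. For Cdkn1a the fit gave 1.54 (SE 0.44, limma adjusted p = 0.144) in grade 3 and 1.24 (SE 0.45, limma adjusted p = 0.587) in grade 2. In Cdkn1a signal, the untreated tumours 8584T3, 8700T1 and 8700T3 thus stood closer to treated tumours than the other untreated tumours did. Over the 27 replication genes this did not hold for mouse 8700. The mean deviation was 0.16 in 8700T1 and 0.08 in 8700T3, against 0.01 in the untreated adenoma 8565T4.

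The proliferation gene Mki67 was at 7.57 to 8.51 in treated adenocarcinomas and at 8.06 in 8584T3, 9.57 in 8565T1, 9.20 in 8629T10 and 9.72 in 8629T12. Its fitted difference was -1.32 (SE 0.38, limma adjusted p = 0.161) in grade 3 and -1.01 (limma adjusted p = 0.652) in grade 2. Cdk1, the mitotic kinase, differed by -1.53 (SE 0.43, limma adjusted p = 0.141) and -1.28 (limma adjusted p = 0.547). In grade 3, Tk1 at -1.40 lay between these values, and the other 26 genes lay nearer 0 than both. The genes of S phase entry lay nearer 0: Ccne1 differed by -0.43 and -0.23, Ccne2 by -0.15 and 0.06, and E2f1 by -0.13 and -0.25, and none of these passed. Ccne1 and E2f1 lay below the array median in every tumour.

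Of 52 further genes of the replication machinery, 44 were measured and none passed in any of the comparisons. In grade 3, 27 of the 44 lay below 0 with a median of -0.11, against 43.8% of all genes. In grade 2, 28 lay below 0 with a median of -0.06, against 49% of all genes. At an unadjusted p under 0.05 by limma, 4 were lower in grade 3 and 4 in grade 2, against 4.48% and 3.36% of all genes. Groups did not overlap, with treated tumours lower, for 1 in grade 3 and 5 in grade 2, against 2.21% and 3.97%. In grade 2, 1 did so with treated tumours higher, against 3.5%. Asf1b, a histone chaperone that feeds chromatin assembly, had the smallest p of the 44 in grade 3. It was at 6.77 to 7.32 in treated and 7.06, 7.86, 7.89 and 8.35 in untreated adenocarcinomas. Its fitted difference was -0.90 (SE 0.24, limma adjusted p = 0.124). Pole, the catalytic subunit of the leading strand polymerase, differed by -1.02 (SE 0.28, limma adjusted p = 0.128) in grade 3 and by -0.71 (SE 0.28, limma adjusted p = 0.669) in grade 2. Gmnn, which encodes the Cdt1 inhibitor geminin, had the smallest p in grade 2, with -0.43 (SE 0.17, limma adjusted p = 0.652).

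Markers of other cells were set beside these differences. No marker of macrophages, neutrophils, lymphocytes, fibroblasts or endothelium passed in either treatment comparison. In grade 2, the 6 fibroblast markers had a median of -0.53, and 4 were lower at an unadjusted p under 0.05 by limma, against 3.36% of all genes. Their mean ran from 9.06 to 9.37 in treated and from 9.56 to 10.12 in untreated adenomas. The 4 measured markers of B and plasma cells had a median of -0.62 there, with means of 6.80 to 7.55 in treated and 7.80 to 8.66 in untreated adenomas. Treated and untreated adenomas did not overlap for 3 of these 4, lower with treatment, against 3.97% of all genes. Epithelial markers lay below 0 for 8 of 9 genes in grade 2, with a median of -0.26, beside -0.18 for the 27 replication genes. Markers of T and NK cells lay below 0 for 5 of 6 genes (median -0.38) and endothelial markers for 5 of 6 (median -0.24), while all 4 measured neutrophil markers lay above 0 (median 0.58). In grade 3, the 6 endothelial markers had a median of 0.46, with means of 7.67 to 8.22 in treated and 7.36 to 8.28 in untreated adenocarcinomas. Of the 3 measured erythroid markers, Hbb-b2 and Alas2 were lower in treated tumours of both grades by the test. Over all genes, 0.347% were called lower in grade 3 and 0.0565% in grade 2. Of the 3 erythroid markers, 2 lay below the array median in every tumour. The part of these cells in the differences of the replication genes was not tested.

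Between grades, no gene of the 27 passed. In untreated tumours, adenocarcinomas were above adenomas for 19 of 27 genes, against 47.8% of all genes, with a median fitted difference of 0.12. The median was 0.28 without 8584T3 and 0.22 without 8629T10, but 0.09 without 8629T12. None passed, where 0.234% of all genes were called. At an unadjusted p under 0.05 by limma, none of the 27 genes was counted in either direction, against 5.95% of all genes higher and 6.78% lower. Mcm10 was the only member whose groups did not overlap, higher in adenocarcinomas, against 3.32% of all genes, with a fitted difference of 0.36 (SE 0.17, limma adjusted p = 0.394). Tk1 differed by 0.41 (SE 0.27, limma adjusted p = 0.54), Chaf1b by 0.26 (limma adjusted p = 0.509), Cdc45 by 0.22 (limma adjusted p = 0.511) and Mcm7 by 0.21 (limma adjusted p = 0.502). Priming genes lay the other way, with Pola1 at -0.24 and Prim1 at -0.21, but 8584T3 was far below the other untreated adenocarcinomas for both. It was at 4.94 for Pola1 and 6.92 for Prim1, and the others were at 5.71 to 6.47 and 7.94 to 8.15. Untreated adenomas were at 5.70 to 6.45 and 7.87 to 8.25. Within mouse 8565, which carried both grades, the adenocarcinoma lay above the mean of the 2 adenomas for 24 of 27 genes with a median of 0.28, led by Tk1 at 0.75 and Uhrf1 at 0.69. It lay above both adenomas for 17 genes, against 28.7% of all genes, in a comparison of 1 tumour with 2. In untreated adenocarcinomas against adenomas, all 6 endothelial markers lay below 0, with a median of -0.66 and 4 at an unadjusted p under 0.05. So did all 6 measured markers of T and NK cells (median -0.57) and 5 of 6 fibroblast markers (median -0.36), and their part in the grade differences was not tested.

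In treated tumours no difference between the grades was detected. Adenocarcinomas lay above adenomas in the fit for 17 of 27 genes, against 55.4% of all genes, with a median of 0.03, none passed and none reached an unadjusted p under 0.05. Over all genes, 0% passed in this comparison, and 157 genes were higher and 85 lower in adenocarcinomas at an unadjusted p under 0.05. Lig1 had the smallest p, with 0.28 (SE 0.15, limma adjusted p = 0.999), and Mcm6 followed with -0.33 (SE 0.21, limma adjusted p = 0.999). Tk1 differed by 0.00 with a mean of 5.74 ± 0.23 (SD, n = 6) against 5.68 ± 0.43 (SD, n = 4). Within mouse 8688 alone, 13 genes lay above 0 and 14 below, with a median of -0.01. Neither Mcm4 (-0.25) nor Fen1 (0.20) kept its sign with 1 mean per animal, at 0.015 and -0.027.

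The treatment difference was not shown to depend on grade for any of the 27 genes. The interaction, the treatment difference in grade 3 minus that in grade 2, had a median of -0.06, with 11 genes above 0 and 16 below, against 46.2% of all genes below. None passed and none reached an unadjusted p under 0.05, and over all genes 0% passed, with 621 higher and 404 lower at an unadjusted p under 0.05. Mcm4 had the smallest p, with -0.64 (SE 0.38, limma adjusted p = 0.644, 95% interval -1.44 to 0.16). Cdc45 stood at -0.29 (limma adjusted p = 0.652), Rrm1 at -0.30 (limma adjusted p = 0.661) and Mcm7 at -0.23 (limma adjusted p = 0.713). Tk1 stood at -0.42. Among the further replication genes, Timeless, which guards stalled forks, had the smallest p, with 0.76 (limma adjusted p = 0.571), and was also lowest in p for grade in untreated tumours with -0.59.

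Probe sets of the same gene mostly pointed the same way in the treatment comparisons. The 27 genes were covered by 50 probe sets, of which 43 lay below 0 in grade 3 and 43 in grade 2. All probe sets of a gene shared a sign for 13 of 15 genes with several in grade 3 and for 12 of 15 in grade 2, but for 7 and 6 of 15 in the grade comparisons. The probe sets used for Mcm4, Mcm6, Mcm7, Fen1 and Rrm2 have names ending in x_at, which marks probes that can hybridise to other transcripts. For Mcm4, 1436708_x_at, the brighter probe set and the one used, gave 0.14 in grade 2 in the fit over all probe sets, while 1416214_at gave -0.36. For Mcm6, 1438852_x_at gave 0.23 in grade 2 and 1416251_at gave -0.07. For Mcm7, 1439269_x_at gave 0.09 in grade 2, and its 3 other probe sets gave -0.18 to -0.03.

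Rrm2 held the widest disagreement. Its probe set 1448226_at gave -2.38 in grade 2 and -1.12 in grade 3, against -0.72 and -0.60 for 1434437_x_at and -0.49 and -0.42 for 1416120_at. The signal of 1448226_at was 6.22 to 6.90 in the 5 tumours of mice 8565 and 8700, the adenocarcinoma 8565T1 included, and 3.60 to 5.09 in the 13 tumours of the other mice. It thus followed the mouse, in untreated tumours as well, where 8584T3, 8629T10 and 8629T12 lay at 3.77, 4.84 and 5.09. The other probe sets of Rrm2 did not split the mice in this way.

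**Figure D5:**
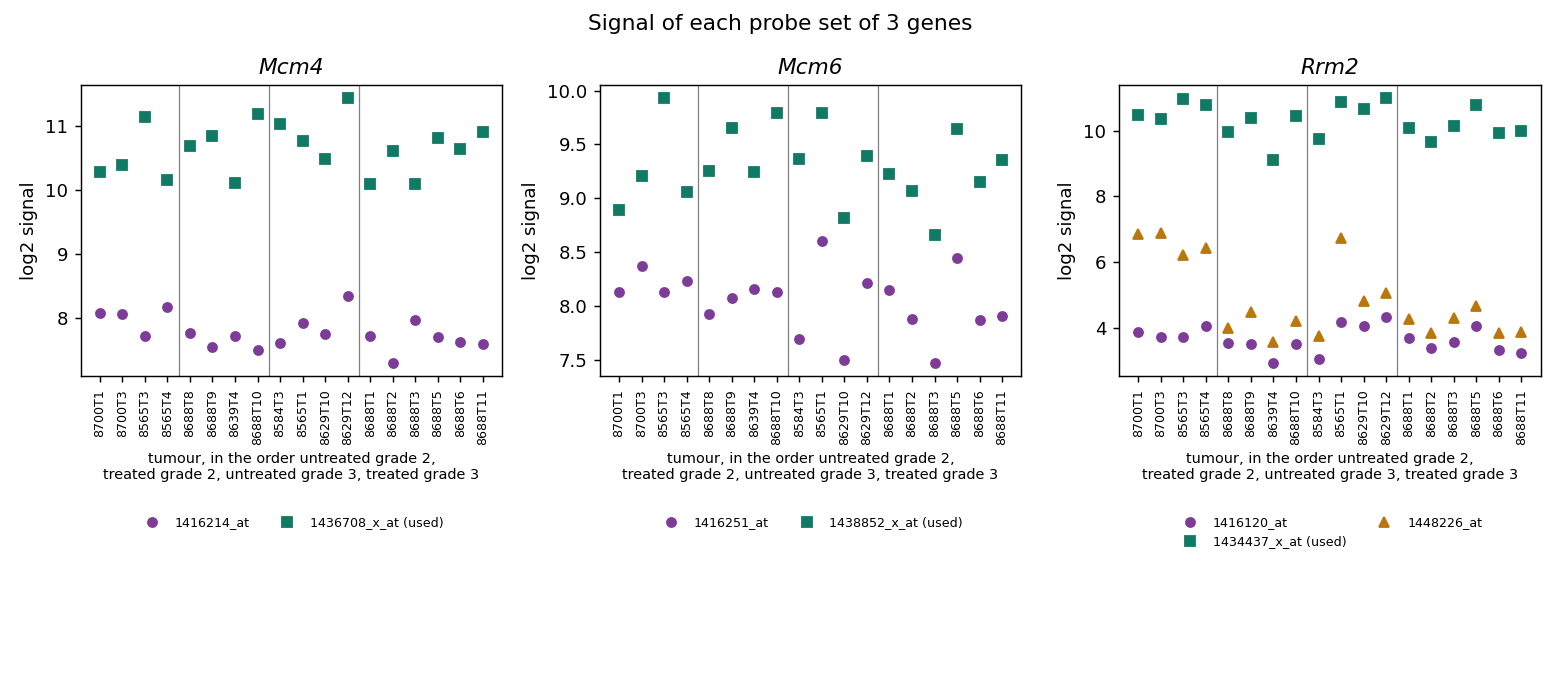
Log2 signal of each probe set of Mcm4, Mcm6 and Rrm2 in each tumour, in the order untreated grade 2, treated grade 2, untreated grade 3 and treated grade 3, with vertical lines between groups. The Rrm2 probe set 1448226_at (triangles) is at 6.22 or above in the 5 tumours of mice 8700 and 8565 and at 5.09 or below in the other 13.

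The genes whose signal followed this set most closely over the 18 tumours were listed as a description. The measure was Pearson's correlation with the mean standardised signal of the 17 members that lay above the median on at least 9 of 18 arrays. The 10 highest were Lrr1 at 0.90, Exo1 at 0.88, Brca1 at 0.87 and Mmp19 at 0.86, then Hells, Cenph, Gsta4 and Dtl at 0.85 and Asf1b and Aurkb at 0.84. The tumours share mice and treatment, so these values hold group differences as well as differences between tumours of a group.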

How the data were processed

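Per the labels' protocols, total RNA was taken from each of 18 tumours, amplified into biotinylated cDNA and read on arrays of 1 colour. Per the submitters' processing notes, R 2.11.0 and GCRMA 2.20.0 were used. The values that the authors deposited are signals on a log2 scale, 1 per probe set and tumour. As background, GCRMA models probe-sequence background and equalises the distribution of arrays, which removes differences in total RNA. Values ran from 0.936 to 14.1, and the number of arrays limits the precision.

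Of 22690 probe sets, 20380 carried 1 gene symbol. A gene was read from its probe set of highest mean signal, which gave 12393 genes with no filter on low signal. All 27 measured members matched the reference by gene ID. Group means were fitted with limma 3.58.1 under R 4.3.3, using every tumour and the mouse as a random block (correlation 0.235, 14 residual and 3.13 prior degrees of freedom). P-values were adjusted over all 12393 genes by Benjamini-Hochberg, at a threshold of 0.05. The tumour is the replicate. The fit was also run on simulated data in which genes varied independently of each other. It thus did not cover variation shared between genes, and it is not used as support here.

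The members, lists and tests were chosen with earlier results of these data known. Values in every tumour are given for members past the threshold and for the 6 members with the smallest p of each comparison (4 for the interaction). Of the further replication genes, the 2 with the smallest p could be named, and Mki67, Cdk1, Ccne1, Ccne2, E2f1 and Cdkn1a always. Cdc6 and the Rrm2 probe sets were described in full after their values were seen. Alternatives concerned the animal term, sex, the samples fitted, filters, normalisation, probe sets, the spread model and leaving out tumours or mice.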

Additional observations from a re-analysis of the deposited data

Results flagged for a closer look

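Within groups of 4 or 6 tumours, 112 groups of values were tested for a single tumour far from the rest, and 7 were found. Chance alone gives about 1 in 20, which is close to the count found, and the groups of different genes share tumours. The values are listed as a description. The treated adenoma 8639T4 was far below the other treated adenomas for Tk1 (5.03, next 5.80), Orc1 (2.75, next 3.43) and Pola1 (4.90, next 5.92). This tumour is the only treated one from its mouse and one of those with a 3′ excess of the controls β-actin and Gapdh. The treated adenocarcinoma 8688T5 was far above the others for Cdc6 (5.85, next 4.67), and 8688T1 for Chaf1b (5.55, next 5.20). Among untreated adenomas, 8565T3 stood apart for Pola1 (6.45, next 5.79) and 8700T1 for Cdc45 (4.96, next 4.67). The part of the animal and of RNA quality in these values was not tested.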

How the results depend on the processing

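The call of Tk1 in grade 3 was the only call among the 27 genes and was not stable. The count was 2 with no animal term, which added Mcm10 at -0.52 (limma adjusted p = 0.0486), and 0 in 7 settings in which Tk1 kept a difference of similar or larger size: -2.13 with sex as a covariate, -1.24 with animal means, -1.28 with the compared groups alone, -1.23, -1.25 and -1.43 without mouse 8565, 8629 and 8700, and -1.28 without the 2 tumours with a 3′ excess. It ran from 0 to 1 over the 18 fits that left out a tumour. In grade 2 the count was 1 with array weights (Tk1, -0.74, limma adjusted p = 0.0413) and 0 over the fits without a tumour, as it was for both grade comparisons and the interaction. The cause was not tested.

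Over all genes, the count called for treatment in grade 3 was 64, and became 473 with no animal term, 1 with animal means, 9 with sex, 27 with only the groups compared, 34 with the filter, 39 with the floor, 467 with array weights, and 294, 35 and 25 without mouse 8584, 8565 and 8629. In grade 2 it was 10, and became 46, 1, 3, 22 and 5 in the same order up to the filter, 790 with array weights, 1, 18, 49, 17 and 1 without mouse 8688, 8639, 8584, 8629 and 8700, and 1 in males only. For grade in untreated tumours it was 29, and became 200 with no animal term, 0 with animal means, only the groups compared or a fixed animal block, 13 with the filter, 16 with the floor, 305 with array weights, and 0, 106, 18, 14 and 0 without mouse 8688, 8584, 8565, 8629 and 8700. For the interaction it was 0, and became 1 with the floor, 14 with array weights, and 12, 5 and 2 without mouse 8584, 8565 and 8629. Without single tumours these counts ran from 21 to 294, 5 to 49, 2 to 190 and 0 to 31, and stayed at 0 for grade in treated tumours.

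The median difference of the 27 genes ran from -0.41 to -0.16 in grade 3, from -0.23 to -0.08 in grade 2, from 0.09 to 0.28 for grade in untreated tumours, from -0.02 to 0.08 in treated tumours and from -0.17 to 0.02 for the interaction over fits without a tumour. Over the other settings it ran from -0.48 (sex) to -0.10 (without mouse 8629) in grade 3, from -0.35 to -0.08 in grade 2, from 0.016 to 0.28 for grade in untreated and -0.03 to 0.14 in treated tumours, and from -0.20 to 0.11 for the interaction. With sex as a covariate the grade 3 difference was -1.56 for Uhrf1 and -1.59 for Rrm2, and in males alone the grade 2 difference was -1.60 for Tk1, with none of these called. For grade in treated tumours, Mcm4 turned to 0.015 with animal means and 0.030 without shared probe sets, and Fen1 to -0.027 with animal means. The interaction of Mcm4 turned to 0.13 without shared probe sets. Mice 8565 and 8688 carried both grades. Paired by mouse, the median was 0.28 for grade in untreated tumours (a fixed animal block, resting on mouse 8565) and -0.01 in mouse 8688 alone, with 0 of the 27 genes called in either. For treatment, no paired analysis was possible because each mouse was either treated or untreated. Replicate numbers follow sample order and pair nothing.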
